A study of Homo sapiens with 6 samples.

Results

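The genes described here put 1-methyladenosine (m1A) or the related 1-methylguanosine into tRNA, or can remove such marks, and they were followed through ribosome footprint libraries of RKO, an established human line from a colorectal cancer. The 10 genes, of 20289 in the table, were chosen by name and found by symbol: TRMT6, TRMT61A, TRMT61B, TRMT10A, TRMT10B, TRMT10C, ALKBH1, ALKBH3, ALKBH7 and FTO. There were 2 groups of 3 libraries: RKO carrying a control short hairpin (shControl) and RKO carrying a hairpin directed at TRMT6 (shTRMT6), with no other treatment or genotype in the labels. The labels give neither the hairpin's sequence nor how many hairpins or clones were used, and nothing in them says whether replicates were separate cultures, so a p-value here rests on the spread of these libraries alone, which may be technical. Footprints are the pieces of mRNA that ribosomes protect from nuclease, and their level reflects mRNA amount and ribosome occupancy together.

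In the T-loop of tRNA a methyl group on the adenine called m1A58 helps to hold the folded shape. TRMT61A carries the catalytic site for this mark in cytosolic tRNA and TRMT6 is its partner that helps to bind tRNA, and initiator methionine tRNA is the classic substrate of the pair. TRMT61B makes the same mark in mitochondria. TRMT10C, with HSD17B10, methylates purines near the acceptor stem of mitochondrial tRNA, and the same pair joins the nuclease PRORP to form mitochondrial RNase P. TRMT10A and TRMT10B methylate a guanine at the equivalent place in other tRNAs, so they are relatives of the m1A enzymes and not m1A58 enzymes. ALKBH1, ALKBH3, ALKBH7 and FTO are iron-dependent dioxygenases of the AlkB family, and removal of m1A from RNA has been described for each, although FTO is best known for N6-methyladenosine in mRNA and ALKBH7 for its role in mitochondria during necrosis.

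TRMT6 is the gene the hairpin targets, and its start region is shown because it is shared with a neighbour whose footprints are given beside it. In RefSeq on GRCh38.p14 the start of TRMT6 and that of MCM8, a helicase gene read in the opposite direction, have 118 bases between them, at chr20:5950534-5950651. The stretch reads as follows on the minus strand, the strand of TRMT6, from the MCM8 side to the TRMT6 side.
TRMT6 and MCM8 start region: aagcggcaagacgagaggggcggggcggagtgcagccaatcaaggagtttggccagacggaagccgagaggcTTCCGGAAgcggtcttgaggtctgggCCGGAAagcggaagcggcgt
The capitals mark matches to CCGGAA, a core recognised by ETS-type transcription factors, searched on both strands. There were 3 matches, 2 of which overlap on opposite strands, and 9.66% of 35116 RefSeq promoters held the motif in the 118 bases before their start.

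TRMT6 footprints were 3.17-fold lower with the hairpin against it, while the groups overlapped for MCM8. TRMT6 (ENSG00000089195, minus strand of chromosome 20, 5937235 to 5950558 in GENCODE 29 on GRCh38, 11 coding exons) had 57.6, 58.4 and 95.3 FPKM in shControl replicates 1 to 3. It had 20.7, 21.9 and 24.1 FPKM in shTRMT6 replicates 1 to 3. FPKM, the unit the authors deposited, is a fragment count scaled by gene length and library depth. All 3 knockdown libraries lay close together and well below the lowest control library, while shControl replicate 3 stood above the other controls. Group means were 70.4 ± 21.5 and 22.2 ± 1.73 FPKM (SD, n = 3 in each group), so 31.6% of the control level was left. On the scale of log2(FPKM + 1) this was a fold change of -1.58 (SE 0.27, limma adjusted p = 0.00301), and 1.12% of tested genes had a lower one. Genes of similar mean level, the tenth of tested genes that holds TRMT6, had a median of 0.35. An estimated 86 to 557 reads per library lie behind TRMT6. Fewer cells with TRMT6 footprints and fewer footprints per cell cannot be told apart in bulk libraries. MCM8 had 15.0, 5.62 and 10.1 FPKM in shControl and 9.89, 14.0 and 8.85 FPKM in shTRMT6, with overlapping groups (log2 fold change 0.15, limma adjusted p = 0.774). The MCM8 value was not stable, at 0.45 without shControl replicate 1, -0.18 without shControl replicate 2, -0.51 with quantile normalization and -0.66 with the trends removed. MCM8 was named after its values were seen.

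**Figure D1:**
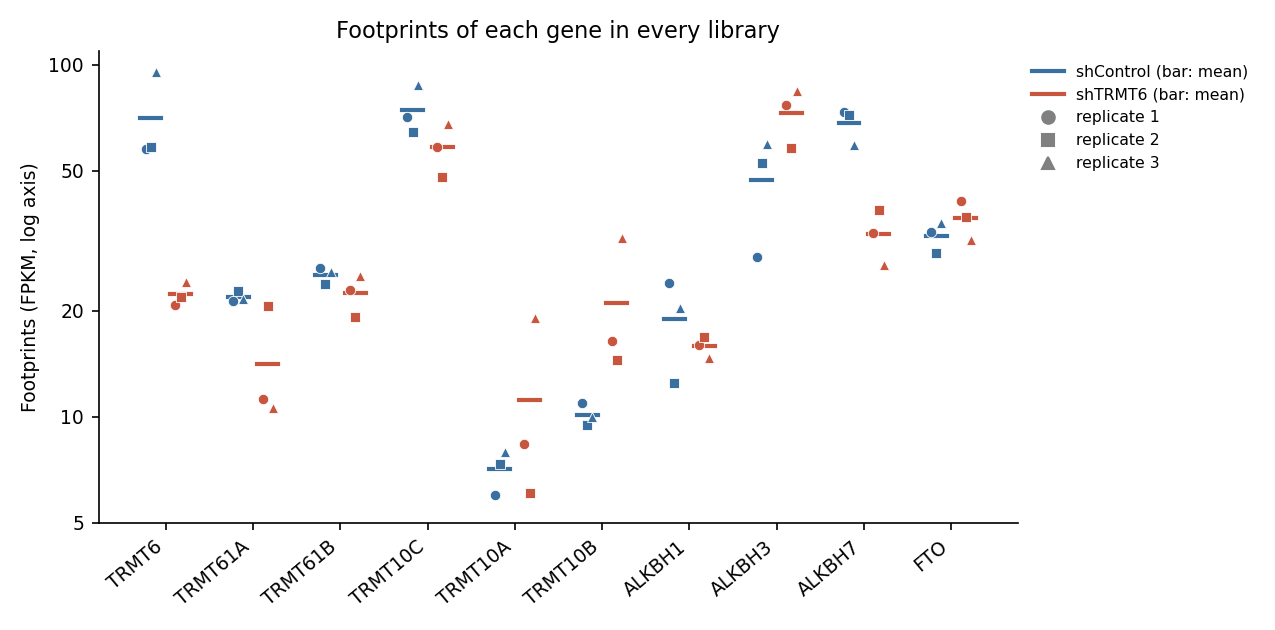
Footprints of the 10 genes in FPKM on a log axis, with 1 point per library and a bar at the mean of each group. TRMT6 and ALKBH7 lie lower in all 3 shTRMT6 libraries, TRMT61A lies lower with shTRMT6 replicate 2 (20.6 FPKM) just under the controls, and TRMT10B lies higher.

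All 10 genes passed the filter on low values, which asked for at least 1 FPKM in at least 3 libraries. Of the 10, TRMT6 and ALKBH7 were lower past the threshold of an adjusted p under 0.05, none was higher, and 8 did not pass. At an unadjusted p under 0.05 there were 3, with TRMT10B, which was higher, added. Over all 11566 tested genes 9.04% were called lower and 26.5% higher. TRMT6 is the hairpin's own target, so its call serves only as a check of the labels. Apart from it ALKBH7 alone was called lower, near the 9.04% for so few genes. The counts and the median that follow include TRMT6. Groups that did not overlap were seen for 4 of the 10, with TRMT6, TRMT61A and ALKBH7 lower and TRMT10B higher, against 14.3% lower and 37.0% higher over all tested genes. The median log2 fold change was 0.39 over all tested genes and -0.19 over the 10. Against that shift of all genes, 7 of the 10, TRMT6 among them, lay below it and 3 (TRMT10A, TRMT10B and ALKBH3) above. Dividing each library by its median moved the median of all tested genes to -0.07 and the calls from 3069 higher and 1046 lower to 1522 higher and 2275 lower.

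**Figure D2:**
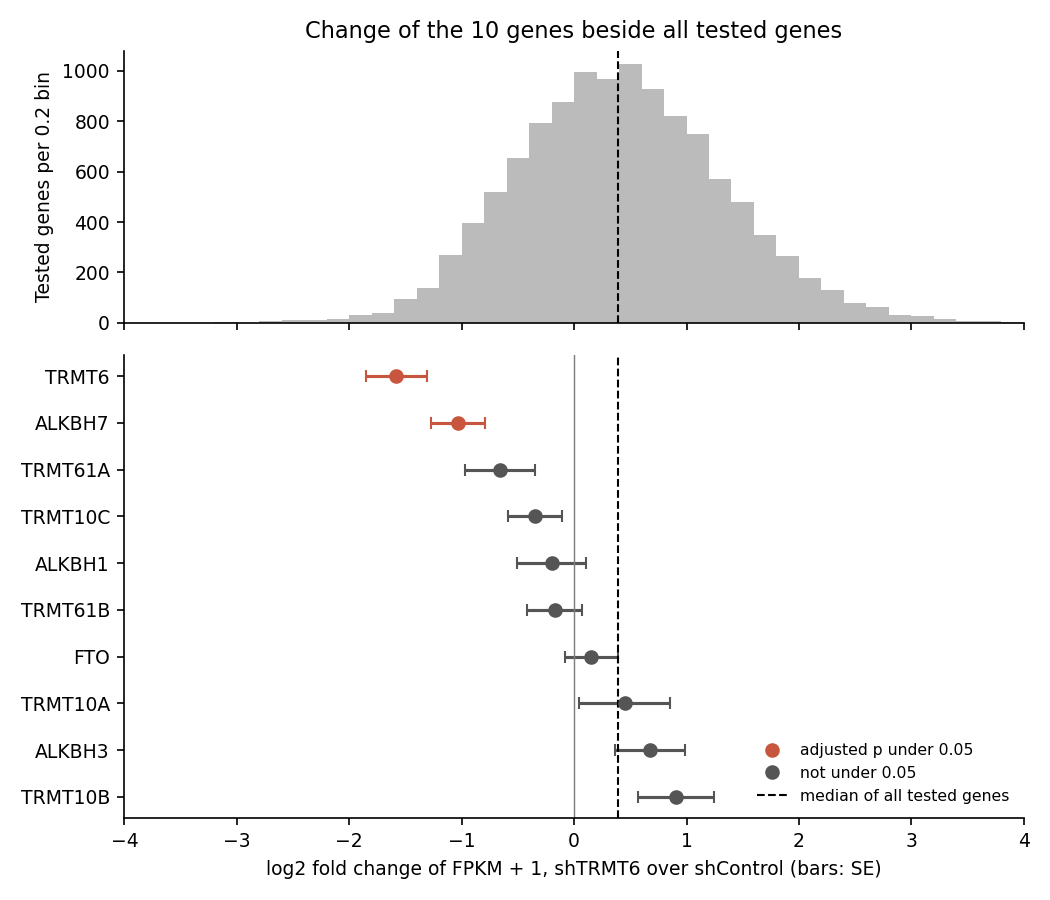
The upper panel counts tested genes by log2 fold change of FPKM + 1 (shTRMT6 over shControl) in bins of 0.2, shown from -4 to 4, and the lower panel gives the 10 genes with SE bars. Red points have a limma adjusted p under 0.05, and the dashed line is the median of all tested genes, 0.39. TRMT6 at -1.58 and ALKBH7 at -1.03 are the red points.

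Footprints come from ribosomes that began at a start codon, so the start is shown for the 4 genes whose groups did not overlap. Each line gives 9 bases before the start codon, the ATG in capitals and the next codon, from the principal transcript in GENCODE 29.
TRMT6: ctgagcgtcATGgag
TRMT61A: attagcaccATGagc
ALKBH7: tccgggattATGgcc
TRMT10B: actaagtccATGgac
A purine 3 bases before the ATG and a G right after it are the usual marks of a strong start. TRMT6 and ALKBH7 have both, TRMT61A has the purine only and TRMT10B the G only. Of the 10 genes 8 have the purine, 6 the G and 4 both. Over 18420 genes with a start codon the shares were 85.2%, 50.7% and 42.7%. No member had neither, and these letters are a description that says nothing about how strongly each start is used.

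TRMT61A, the catalytic partner of TRMT6, also had fewer footprints in each knockdown library, but by less and short of the threshold. TRMT61A (ENSG00000166166, plus strand of chromosome 14, 103529184 to 103537073, 3 coding exons) had 21.3, 22.8 and 21.6 FPKM in shControl and 11.2, 20.6 and 10.6 FPKM in shTRMT6. The controls were nearly equal, and of the knockdown libraries replicates 1 and 3 were near 11 while replicate 2 came close to the controls. They averaged 21.9 ± 0.771 and 14.1 ± 5.59 FPKM (SD, n = 3 in each group), with a log2 fold change of -0.66 (SE 0.31, limma adjusted p = 0.122). Without shTRMT6 replicate 1, 2 or 3 the log2 fold change was -0.54, -0.95 or -0.50, with limma adjusted p of 0.317, 0.0543 and 0.330. After each library was divided by its median it was -1.13 (limma adjusted p = 0.0210), and with quantile normalization -1.24 (limma adjusted p = 0.0185), so whether TRMT61A passes turns on the scaling. An estimated 24 to 74 reads lie behind each TRMT61A value, and 24 reads alone carry a counting error of about 20.4%.

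A ratio of FPKM taken inside a library does not change when that library is multiplied by a single factor, although it does change with quantile normalization or removal of trends. The FPKM of TRMT6 was 2.70, 2.56 and 4.41 times that of TRMT61A in the control libraries and 1.85, 1.06 and 2.28 times in the knockdown libraries. Every control ratio was above every knockdown ratio. On the log2 scale of FPKM + 1, TRMT6 exceeded TRMT61A by 1.60 ± 0.43 in control libraries and by 0.68 ± 0.53 in knockdown libraries (SD, n = 3 in each group). The change was -0.92, with an exact two-sided permutation p of 0.1, which is the lowest that a design of 3 against 3 can reach. It was -0.77 with quantile normalization and -1.17 with the trends with level and with length removed. TRMT6 took places 3, 3 and 1 by FPKM among the 10 genes in the control libraries, and places 6, 5 and 7 in the knockdown libraries. ALKBH3 held place 1 in all 3 knockdown libraries after places 5, 4 and 3 in the controls.

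**Figure D3:**
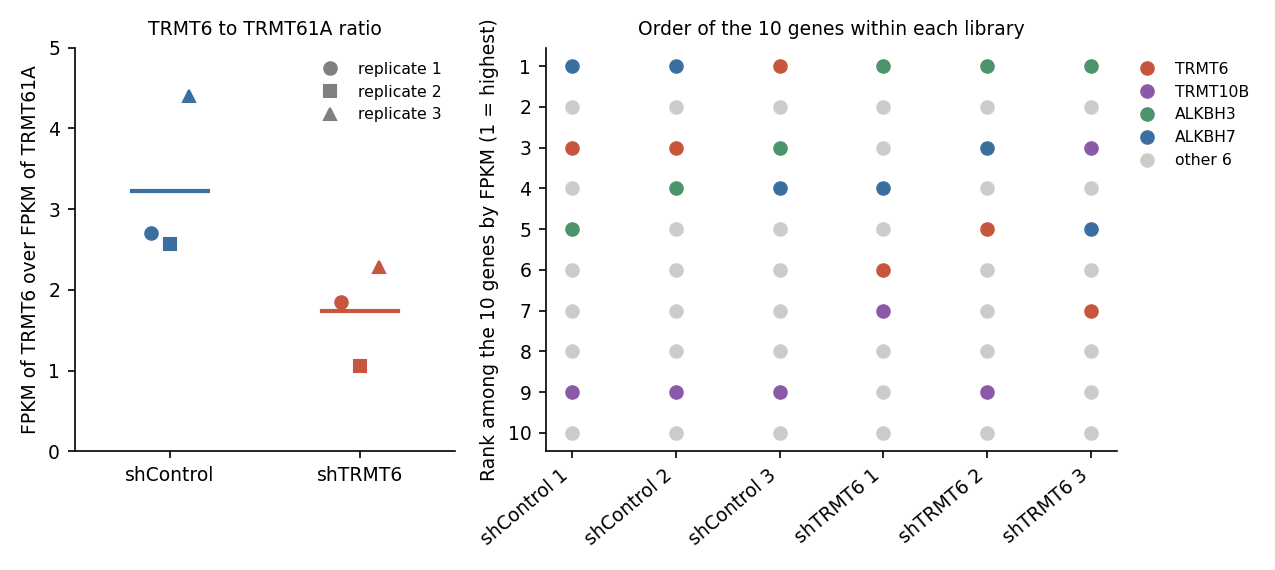
The left panel gives the FPKM of TRMT6 divided by that of TRMT61A in each library with the group means as bars, and the right panel gives the rank of the 10 genes by FPKM within each library. All 3 shTRMT6 ratios (1.06 to 2.28) lie below all shControl ratios (2.56 to 4.41).

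The mitochondrial writers were not called. TRMT61B (ENSG00000171103, minus strand of chromosome 2, 28849821 to 28870301) had 26.4, 23.8 and 25.7 FPKM in shControl and 22.96, 19.2 and 25.1 FPKM in shTRMT6. The groups overlapped and the means, 25.3 ± 1.34 and 22.4 ± 2.99 FPKM (SD, n = 3 each), were close (log2 fold change -0.17, SE 0.25, limma adjusted p = 0.611). With quantile normalization TRMT61B was at -0.70 (limma adjusted p = 0.0570). TRMT10C (ENSG00000174173, plus strand of chromosome 3, 101561862 to 101566446, with its coding sequence in 1 exon) had the highest mean of the 10 in shControl. Its values were 70.9, 64.4 and 87.7 FPKM in shControl and 58.5, 48.0 and 67.9 FPKM in shTRMT6. They overlapped, since the highest knockdown library exceeded the lowest control library (log2 fold change -0.35, SE 0.24, limma adjusted p = 0.277). With median scaling TRMT10C passed, at -0.84 (limma adjusted p = 0.0276).

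The methyltransferases of the guanine mark had the lowest levels of the 10 in shControl and their highest values in shTRMT6 replicate 3. TRMT10B (ENSG00000165275, plus strand of chromosome 9, 37753803 to 37778972) had 10.9, 9.46 and 9.98 FPKM in shControl and 16.5, 14.5 and 32.2 FPKM in shTRMT6. Every knockdown value exceeded every control value, but the spread among knockdown libraries was wide, with means of 10.1 ± 0.745 and 21.0 ± 9.69 FPKM (SD, n = 3 each). Its log2 fold change was 0.90 (SE 0.34, limma adjusted p = 0.0619), and without shTRMT6 replicate 3 it was 0.57. With median scaling it was 0.44 (limma adjusted p = 0.337), and with quantile normalization 0.28 (limma adjusted p = 0.567). TRMT10A (ENSG00000145331, minus strand of chromosome 4, 99546709 to 99564032) had 6.00, 7.34 and 7.96 FPKM in shControl and 8.35, 6.08 and 19.1 FPKM in shTRMT6. In shTRMT6, replicate 3 stood far above the controls, replicate 1 just above them and replicate 2 among them. The log2 fold change was 0.45 (SE 0.41, limma adjusted p = 0.409), and without shTRMT6 replicate 3 it was 0.01. The sign turned with quantile normalization, to -0.26. An estimated 20 to 50 reads per library lie behind TRMT10A and 24 to 79 behind TRMT10B. Of the 28-base windows of the TRMT10B coding sequence 4.02% also occur in the pseudogene TRMT10BP1, so a small part of its reads is uncertain.

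Among the demethylases ALKBH7 was lower after knockdown and the other 3 did not pass. ALKBH7 (ENSG00000125652, plus strand of chromosome 19, 6372433 to 6375251) had 73.2, 71.9 and 59.1 FPKM in shControl and 33.3, 38.6 and 27.0 FPKM in shTRMT6. The groups lay well apart. They averaged 68.1 ± 7.80 and 33.0 ± 5.81 FPKM (SD, n = 3 in each group), 2.06-fold lower after knockdown, with a log2 fold change of -1.03 (SE 0.24, limma adjusted p = 0.0104). Without shTRMT6 replicate 3, where ALKBH7 was lowest, the log2 fold change was -0.90 and just missed the threshold (limma adjusted p = 0.0511). It passed in the other 14 of 15 alternative fits. ALKBH7 has the shortest coding sequence of the 10, 663 nt, and short genes as a class were lower than long ones here: the eighth of tested genes by coding length that holds ALKBH7 had a median log2 fold change of -0.07, against 0.88 in the longest eighth. After level and length trends were taken out, ALKBH7 had a log2 fold change of -1.13 (limma adjusted p = 0.00658). The median of all tested genes was then -0.06, so relative to it ALKBH7 went from -1.42 to -1.08.

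ALKBH3 (ENSG00000166199, plus strand of chromosome 11, 43880811 to 43920266) had 28.5, 52.6 and 59.5 FPKM in shControl and 76.7, 58.1 and 84.1 FPKM in shTRMT6. The lowest knockdown library, replicate 2, lay just under the highest control library, replicate 3. The log2 fold change was 0.68 (SE 0.31, limma adjusted p = 0.115). It passed only without shControl replicate 3, at 0.88 (limma adjusted p = 0.0463), and without shControl replicate 1 it was 0.36 (limma adjusted p = 0.357). With median scaling it was 0.19. ALKBH1 (ENSG00000100601, minus strand of chromosome 14, 77672404 to 77708020) had 24.0, 12.5 and 20.4 FPKM in shControl and 16.0, 16.8 and 14.7 FPKM in shTRMT6. The knockdown libraries fell inside the range of the controls (log2 fold change -0.20, SE 0.30, limma adjusted p = 0.631). The value for ALKBH1 was -0.01 without shControl replicate 1, -0.46 without shControl replicate 2 and -0.80 with quantile normalization. ALKBH1 starts 51 bases from SLIRP, a mitochondrial RNA-binding protein gene on the other strand that was named after its values were seen. SLIRP was not called (log2 fold change -0.43, limma adjusted p = 0.247), but it passed with median scaling (-0.92, limma adjusted p = 0.0284) and without shControl replicate 3 (-0.69, limma adjusted p = 0.0182), and was 0.01 with quantile normalization. FTO (ENSG00000140718, plus strand of chromosome 16, 53701692 to 54158512) had 33.4, 29.1 and 35.5 FPKM in shControl and 41.0, 36.9 and 31.7 FPKM in shTRMT6. Its groups overlapped (log2 fold change 0.15, SE 0.24, limma adjusted p = 0.639), and the sign turned with median scaling, to -0.33.

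**Figure D4:**
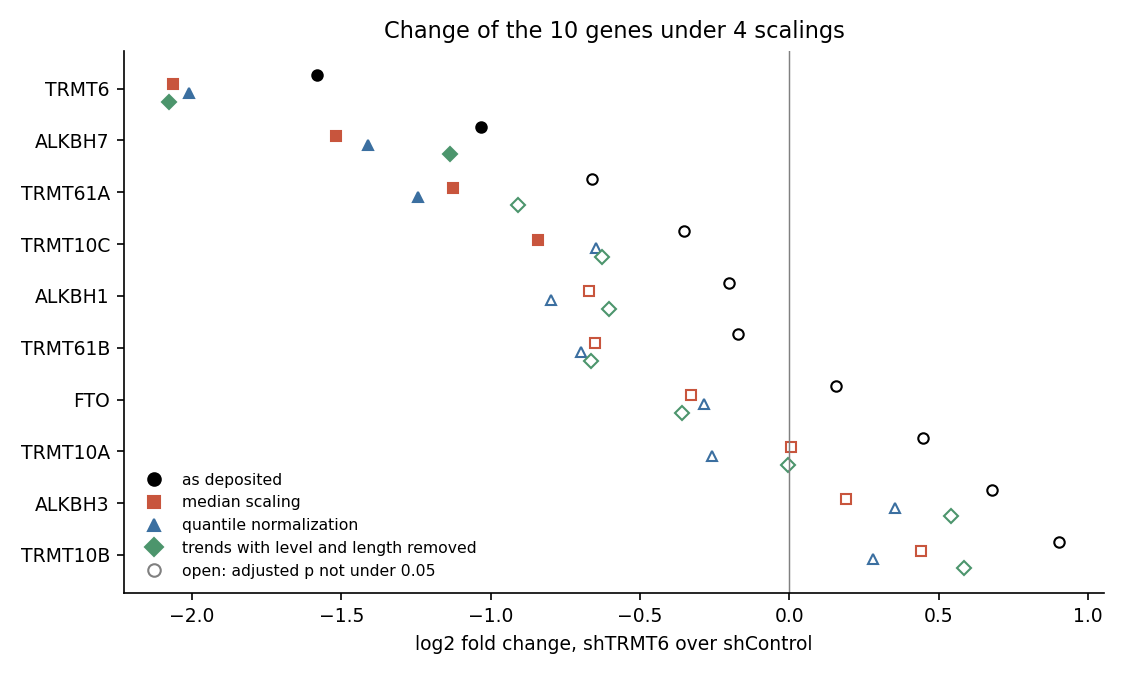
The log2 fold change of the 10 genes (shTRMT6 over shControl) from the values as deposited and under 3 other scalings, with filled symbols for a limma adjusted p under 0.05. TRMT6 and ALKBH7 are filled under all 4, TRMT61A under median scaling (-1.13) and quantile normalization (-1.24), and TRMT10C under median scaling (-0.84).

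FPKM is per length, so levels are set beside each other across genes here. The gene lengths behind the deposited FPKM are not given, so this order is approximate. In shControl the order by mean was TRMT10C (74.3), TRMT6 (70.4), ALKBH7 (68.1), ALKBH3 (46.8), FTO (32.7), TRMT61B (25.3), TRMT61A (21.9), ALKBH1 (19.0), TRMT10B (10.1) and TRMT10A (7.10 FPKM). The ranges of the first 5 overlapped from each gene to the next, and so did those of TRMT61A and ALKBH1. FTO lay above TRMT61B, TRMT61B above TRMT61A, ALKBH1 above TRMT10B and TRMT10B above TRMT10A in all libraries of the group. In shTRMT6 the order was ALKBH3 (73.0), TRMT10C (58.1), FTO (36.6), ALKBH7 (33.0), TRMT61B (22.4), TRMT6 (22.2), TRMT10B (21.0), ALKBH1 (15.8), TRMT61A (14.1) and TRMT10A (11.2 FPKM). There the ranges separated only between TRMT10C and FTO and between ALKBH7 and TRMT61B. No test was made between genes.

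Among partners of these enzymes and other m1A enzymes, ASCC2 and ASCC3 were higher and HSD17B10 was lower. Of 6 such genes 2 were called higher, 1 lower and 3 not called, against 26.5% higher and 9.04% lower over all tested genes, which is near those shares for so few genes. HSD17B10, the partner of TRMT10C in mitochondria and also a dehydrogenase, had 226.5, 219.8 and 194.9 FPKM in shControl and 76.3, 120.2 and 77.0 FPKM in shTRMT6. All knockdown libraries were well below the controls, 2.34-fold lower in the mean (log2 fold change -1.25, SE 0.24, limma adjusted p = 0.00481). PRORP, the nuclease of the same complex, had overlapping groups (log2 fold change -0.14, limma adjusted p = 0.765). The difference between HSD17B10 and TRMT10C in their change was not tested. ASCC2 and ASCC3 belong to the complex in which the helicase ASCC3 works with ALKBH3 in repair of alkylated DNA, and which also splits collided ribosomes. ASCC2 had 36.5, 52.4 and 26.1 FPKM in shControl and 140.9, 93.0 and 154.9 FPKM in shTRMT6 (log2 fold change 1.75, SE 0.31, limma adjusted p = 0.00346). ASCC3 had 18.8, 28.8 and 16.6 FPKM in shControl and 53.5, 44.5 and 51.4 FPKM in shTRMT6 (log2 fold change 1.22, SE 0.27, limma adjusted p = 0.00892). ASCC2 kept its call in all 15 alternative fits, whereas ASCC3 did not pass with median scaling (0.74, limma adjusted p = 0.0517) or with the trends removed (0.30, limma adjusted p = 0.381). ASCC1, of the same complex, had overlapping groups (0.36, limma adjusted p = 0.508). RRP8, which makes m1A in ribosomal RNA, was not called either (log2 fold change 0.45, limma adjusted p = 0.280), and like ASCC1 it changed sign in at least 1 alternative fit.

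Of the 5 other AlkB family genes 1 was called higher and 4 were not called, a share near the 26.5% over all tested genes. ALKBH6 had 30.3, 28.3 and 22.5 FPKM in shControl and 63.4, 70.9 and 58.7 FPKM in shTRMT6, with all knockdown libraries above all controls (log2 fold change 1.23, SE 0.24, limma adjusted p = 0.00488). ALKBH2, ALKBH4, ALKBH5 and ALKBH8 had log2 fold changes of -0.16, -0.04, 0.46 and 0.23 and were not called, and all but ALKBH2 changed sign in at least 1 alternative fit. ALKBH5, at 79.7 to 89.0 FPKM in shControl and 105.2 to 124.75 FPKM in shTRMT6, also had groups that did not overlap. Over all tested genes 37.0% were higher without overlap.

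Among 5 genes with a YTH domain, which reads methylated adenosine in RNA, 2 were called higher and 3 were not called, again beside 26.5% called higher over all tested genes. YTHDF1 had 230.9, 311.9 and 233.5 FPKM in shControl and 969.2, 1017 and 720.3 FPKM in shTRMT6, 3.49-fold higher in the mean (log2 fold change 1.80, SE 0.23, limma adjusted p = 0.00108). Every knockdown library held more than any control library, and the call held in all 15 alternative fits. YTHDC1, the nuclear reader, had 10.0, 19.4 and 31.7 FPKM in shControl and 46.2, 35.6 and 52.0 FPKM in shTRMT6 (log2 fold change 1.21, SE 0.38, limma adjusted p = 0.0344). It failed to pass in 9 of 15 alternative fits, 5 of them the fits without shControl replicate 1 or 2 or without shTRMT6 replicate 1, 2 or 3, with adjusted p-values up to 0.229 over all 15. YTHDF2, YTHDF3 and YTHDC2 had log2 fold changes of -0.33, 0.25 and 0.23 and were not called, and each changed sign in at least 1 alternative fit.

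Genes that degrade or tail undermodified tRNA were not called. All 7 (TENT4A, TENT4B, ZCCHC7, MTREX, EXOSC10, XRN1 and XRN2) had a positive log2 fold change, from 0.35 to 1.00, with a median of 0.48 against 0.39 over all tested genes, but the sign of TENT4B, MTREX, EXOSC10, XRN1 and XRN2 turned in at least 1 alternative fit. XRN1, the cytoplasmic exonuclease, had the smallest p of them, at 6.42, 2.83 and 8.49 FPKM in shControl and 14.1, 11.8 and 10.3 FPKM in shTRMT6. Its groups did not overlap (log2 fold change 1.00, SE 0.38, limma adjusted p = 0.0662). Those of TENT4B and ZCCHC7 did not overlap either, and over all tested genes 37.0% were higher without overlap. Without shControl replicate 3, EXOSC10, XRN1 and XRN2 passed, in a fit that called 3270 of 11566 tested genes higher. Over the 23 genes of the 4 lists 5 were higher, 1 lower and 17 not called. With median scaling 3 were higher and 1 lower, beside 1522 higher and 2275 lower of 11566 tested genes. As deposited, 5 and 1 of 23 are smaller shares than the 26.5% higher and 9.04% lower over all tested genes.

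**Figure D5:**
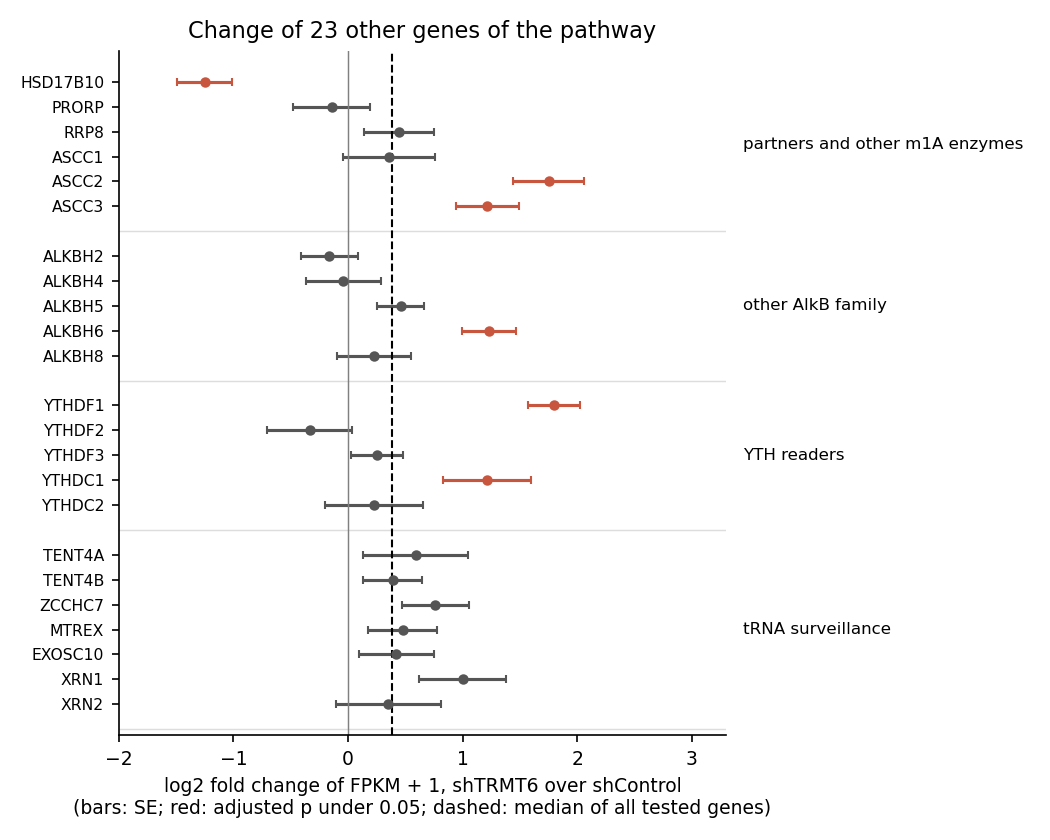
The log2 fold change of FPKM + 1 (shTRMT6 over shControl) with SE bars for 23 genes around the m1A enzymes, grouped by list. Red marks a limma adjusted p under 0.05, with HSD17B10 at -1.25 the only one below 0, and the dashed line is the median of all tested genes.

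The genes whose log2(FPKM + 1) followed TRMT6 most closely over the 6 libraries were ACTR2, MMADHC, NUDC, CACYBP and ANP32B, with Pearson's r of 0.995 to 0.998. Candidates were the 5728 named genes in the upper part of the tested genes by mean level, and 509 of them had an r over 0.9. The points are 6 libraries in 2 groups, so they share library depth and the group difference. ACTR2, an actin-nucleating protein, had 368.5, 350.1 and 501.9 FPKM in shControl and 176.9, 175.7 and 186.1 FPKM in shTRMT6.

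The deposited values summed to 1463344 to 1760307 FPKM per library, and an estimated 3346000 to 5654000 reads on coding sequence lie behind them. Pearson's r of log2(FPKM + 1) across tested genes ranged from 0.936 to 0.964 for libraries of the same group and from 0.865 to 0.923 otherwise. Of the epithelial markers EPCAM, KRT8, KRT18 and CDX2 were present in every library, and CDH1 and VIL1 were listed at 0 in all. KRT19 was above 0 only in shControl replicate 1 (1.52 FPKM) and KRT20 only in shTRMT6 replicate 1 (0.57 FPKM). The 8 markers summed to 165.0 to 261.8 FPKM in shControl and 168.8 to 193.5 FPKM in shTRMT6. KRT18 alone had 97.1 to 215.6 FPKM in shControl and 102.95 to 121.1 FPKM in shTRMT6. Of the fibroblast, leucocyte and endothelial markers only CD68, a lysosomal gene also used for macrophages, was above 3 FPKM, at 559.4 to 754.0, while PTPRC, CD3E, VWF and CDH5 were listed at 0.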

How the data were processed

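Ribosome footprints of 6 libraries were analysed, 3 shControl and 3 shTRMT6. Per the labels' protocols the lysate was treated with RNase I, and a small RNA kit made the libraries. The authors deposited FPKM per gene, per the file headers. Tools listed in the submitters' processing notes are fastp, STAR and RSEM. Versions, build, annotation and strand use: not given in the sources used here. TRMT61B shares coding bases with an exon of SPDYA on the opposite strand (119 nt in GENCODE 29), so reads there cannot be told apart without strand. Columns NC and SH were read as shControl and shTRMT6, which no label spells out, and 0 were left unassigned. Symbols were found for 19705 of 20289 identifiers. The members and lists were chosen with earlier results of these data known.

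The 11566 genes that reached 1 FPKM in 3 or more libraries were fitted on log2(FPKM + 1) with limma 3.58.1 in R 4.3.3, using group as the only term and an intensity trend, and p-values were adjusted over all of them (Benjamini-Hochberg). A fold change on this scale understates low genes. The fit was tested on simulated data with few changed genes, signs drawn at random and no overall shift. That test does not cover the shift of all genes seen here. The reads behind a value were estimated from the steps between low values of genes with 1 coding transcript. Of those low values 68.0% to 78.5% came within 0.1 of a whole number. Counting error is the only error given for the read numbers. The fitted step and the coding length of the chosen transcript add error that was not estimated per gene, and the estimates may be too high. The planned named genes were the 10 members, the called genes of 4 lists, or the smallest p where none was called, and the 5 genes most like TRMT6. Cell type markers were planned apart from these. The uncalled genes of the 4 lists, MCM8 and SLIRP were named in addition. Tables were handled with pandas 2.3.3 and numpy 2.4.6 in Python 3.11.15, and plots made with matplotlib 3.10.9. One marker is not reported here.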

Additional observations from a re-analysis of the deposited data

How the results depend on the processing

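TRMT6 stayed lower and past the threshold in all 15 alternative fits, with log2 fold changes from -2.08 to -1.35 and adjusted p up to 0.0177. The count of called members, 2, was 4 with median scaling (TRMT6, TRMT61A, TRMT10C and ALKBH7) and from 1 to 3 when 1 library was left out. Among the 10 members, the signs of 2 that were not called turned: TRMT10A was -0.26 with quantile normalization and -0.0030 with the trends removed, and FTO was -0.33 with median scaling, -0.28 with quantile normalization and -0.36 with the trends removed; the cause was not tested. The ratio of TRMT6 to TRMT61A changed by -0.92 on the log2 scale, and by -0.77 with quantile normalization, -1.17 with the trends removed and -1.14 to -0.62 with 1 library left out. Calls over all tested genes numbered 4115 (3069 higher and 1046 lower), 3797 with median scaling (1522 higher and 2275 lower, median log2 fold change -0.07), 3302 with quantile normalization (1602 and 1700), and 2427 to 4698 with 1 library left out, with 2544 without shTRMT6 replicate 1 and 2427 without shTRMT6 replicate 3. Whether same-numbered libraries were prepared together is not given in the labels. Their deviations from the group means correlated at 0.01, 0.01 and 0.10, and 3 of 6 libraries correlated best with their own number. Correlations over so few libraries cannot settle this. With the replicate block 4211 genes were called and the 2 members stayed called. Low genes such as TRMT10A rest on as few as an estimated 20 reads.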
